A study of Mus musculus with 6 samples.

Results

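The genes described here are 34 genes that direct cells to the photoreceptor fate or carry out phototransduction, chosen by name from their known roles and measured in the embryonic mouse retina with and without Onecut1. Of the 34, 32 had at least 1 probe set that the platform annotation maps to that gene alone, out of 18193 such genes on the array, and each was read from the brightest of its probe sets over the 6 arrays. Nr2e3, a nuclear receptor that acts with Nrl in rods, and Cnga3, a subunit of the cone channel, had no such probe set and were not analysed here. Total RNA from the retinas of 1 embryo was hybridised to each Affymetrix array, with 3 WT and 3 OC1-KO embryos numbered 1 to 3 in each genotype. OC1-KO embryos lack Onecut1 (OC1), a homeodomain transcription factor, in every tissue and not in the retina alone, and the WT embryos were littermates from the same colony, of mixed strain background. All embryos were untreated and of the same age, which is E14 in the labels and E14.5 in the article. Each value is a MAS5 signal, the brightness of a probe set after background correction, given on the log2 scale, and a gene was taken as above the signal filter where its mean log2 signal was over 7 in WT or in OC1-KO.

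Photoreceptors arise from progenitors that leave the cell cycle and switch on Otx2, which in turn acts through Crx. Prdm1 holds such cells in the photoreceptor fate, while Nrl and Nr2e3 direct them to become rods instead of cones. In the mature cell, an opsin that has caught a photon activates the G protein transducin, transducin activates the phosphodiesterase Pde6, and the fall in cyclic GMP closes a cation channel. Arrestins and rhodopsin kinase end the response, and guanylate cyclase activators restore cyclic GMP. Rods and cones use separate genes for most of these steps. Cones are born early in the mouse retina and most rods late, and the outer segment that houses the cascade forms after birth.

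The tissue carried retinal markers in every embryo, since 9 of 9 progenitor markers and 8 of 8 ganglion cell markers with a probe set were above the filter. WT 3 and OC1-KO 3 differed from the rest in the markers of neighbouring tissues. The summed signal of 12 lens markers was 11400 and 21910 in the embryos numbered 3 and 321 to 510 in the others, and that of 8 red blood cell markers was 16590 and 24040 against 76.3 to 754. Markers of periocular mesenchyme summed to 2546 and 2922 in the embryos numbered 3 and to 510 to 724 in the others. In addition, OC1-KO 3 had the lowest median signal of the 6 arrays, 85.0 against 97.3 to 104 in the others, and the smallest share of probe sets over a log2 signal of 7, 43.4% against 45.5% to 46.7%. The probe sets of Onecut1 itself check nothing about the knockout here, because the sources used here do not say whether the deletion covers them. The labels number the embryos without saying what embryos of the same number share. The part of lens, blood and mesenchyme RNA in the results below was not tested, so values are given by embryo, and for the comparison of genotypes with and without the embryos numbered 3.

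At this age the fate factors and a few members of the cascade were above the filter, while most of the phototransduction genes were not. Of the 32 genes with a probe set, 10 (31.2%) passed the filter, compared with 10526 of all 18193 genes (57.9%). Of these 10, 7 were over 7 on all 6 arrays. The other 3 (Nrl, Cngb3 and Crb1) were over 7 on some arrays, and the 22 genes below the filter were over 7 on none. As a check of what the threshold lets through, 0 of 74 genes for olfactory, vomeronasal and taste receptors, which are not expected in retina, passed it, and their median log2 signal was 3.24. By cell type of use, 2 of 10 rod genes (Nrl and Gnb1), 3 of 9 cone genes (Gnat2, Gnb3 and Cngb3) and 5 of 13 genes shared by both or used more widely passed. The filter is the threshold of the methods and not a detection call, and a signal below it does not show that a gene was silent. In whole retina, fewer cells of a type and less RNA per cell cannot be told apart.

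**Figure D1:**
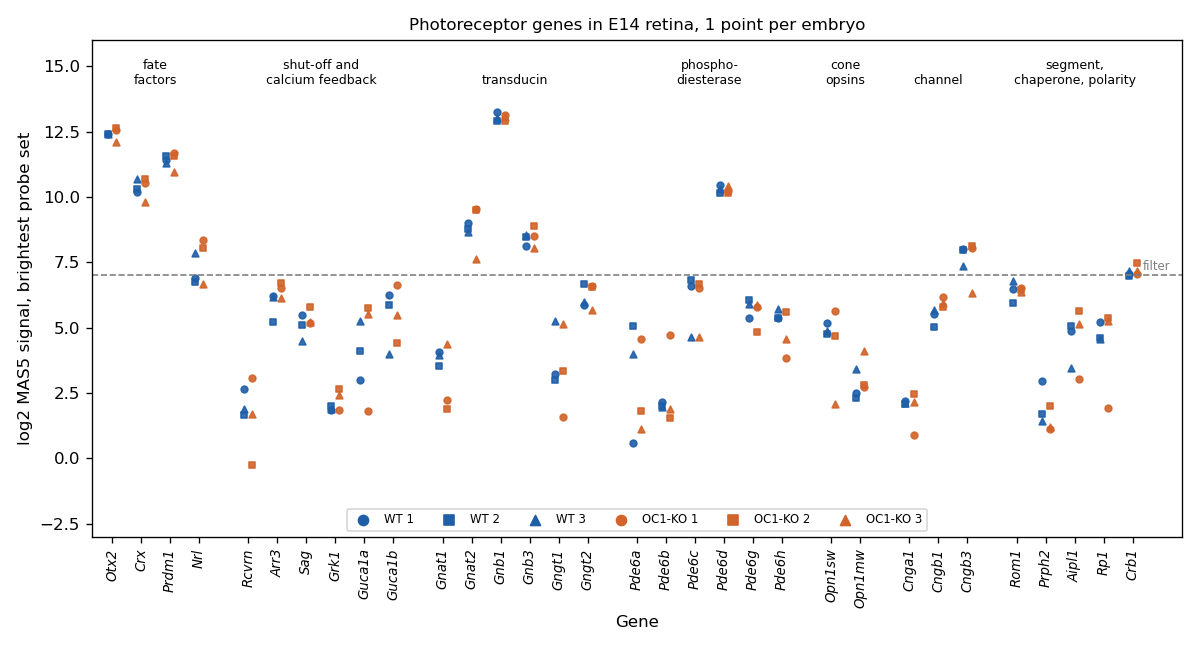
Log2 MAS5 signal (vertical axis) of the 32 genes with a probe set, grouped by role (horizontal axis), with WT in blue, OC1-KO in orange, 1 point per embryo and the embryo number given by the marker shape. The dashed line is the filter at a log2 signal of 7. All 4 fate factors, but neither cone opsin and none of the 6 shut-off and calcium feedback genes, passed it. Signals of different genes come from different probe sets and are to be read against the line and not against each other.

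All 4 fate factors with a probe set passed. Otx2, the homeodomain factor that commits cells to the photoreceptor fate, measured 12.39, 12.41 and 12.40 in the WT retinas and 12.55, 12.64 and 12.11 in the OC1-KO retinas, here and below in the order of the embryo numbers. Crx, the homeodomain factor that drives photoreceptor genes, measured 10.19, 10.30 and 10.68 in WT and 10.52, 10.69 and 9.81 in OC1-KO. In both genes OC1-KO 3 was the lowest of the 6 arrays, and the genotypes overlapped. A second probe set of Crx gave 8.73, 8.82 and 9.14 in WT and 9.27, 9.37 and 8.37 in OC1-KO, with OC1-KO 3 again the lowest. Prdm1, the zinc finger repressor also called Blimp1, measured 11.40, 11.57 and 11.31 in WT and 11.66, 11.56 and 10.96 in OC1-KO. Nrl, the leucine zipper factor that determines rods, lay at the threshold, with 6.88, 6.74 and 7.87 in WT and 8.37, 8.04 and 6.65 in OC1-KO. The order of the Nrl values therefore differed between embryos, since WT 3 and OC1-KO 1 and 2 were over 7 and the other 3 arrays were under it.

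Neither cone opsin passed. Opn1sw, the short wavelength opsin, ranged from 2.08 to 5.65 over the 6 arrays, and Opn1mw, the medium wavelength opsin, from 2.30 to 4.11. Both cone opsins were thus under the filter on every array.

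Of the 6 transducin genes, 3 passed. Gnat2, the alpha subunit of cones, measured 8.99, 8.76 and 8.65 in WT and 9.54, 9.51 and 7.64 in OC1-KO. The OC1-KO embryos lay on both sides of the 3 WT values, with 1 and 2 above all of them and 3 below all of them. Gnb3, the beta subunit of cones, measured 8.13, 8.46 and 8.54 in WT and 8.49, 8.90 and 8.06 in OC1-KO. Gnb1, the beta subunit of rods that many other cells also use, measured 13.24, 12.89 and 13.01 in WT and 13.14, 12.92 and 13.04 in OC1-KO. Its groups overlapped, and the 2 dimmer probe sets of Gnb1 ran from 11.83 to 12.22 and from 7.06 to 8.03. On the dimmest of the 3, every OC1-KO value was under every WT value (8.01, 7.53 and 8.03 in WT, and 7.25, 7.30 and 7.06 in OC1-KO), so the probe sets of Gnb1 disagreed. Genotypes without overlap, in either direction, were seen in 3.56% of all probe sets that passed the filter. Gnat1, the rod alpha subunit, stayed at 1.87 to 4.37, Gngt1, the rod gamma subunit, at 1.57 to 5.25, and Gngt2, the cone gamma subunit, at 5.68 to 6.65.

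Of the 6 phosphodiesterase genes, only Pde6d passed. Pde6d encodes a carrier of lipid-modified proteins and is not confined to photoreceptors, and it measured 10.44, 10.13 and 10.29 in WT and 10.22, 10.16 and 10.43 in OC1-KO. The catalytic subunits of rods, Pde6a and Pde6b, ranged from 0.59 to 5.06 and from 1.53 to 4.73, and the inhibitory subunits Pde6g of rods and Pde6h of cones from 4.85 to 6.06 and from 3.82 to 5.70. Pde6c, the catalytic subunit of cones, had the highest value of any gene below the filter, and its 6 values are given because they split by embryo number, as seen after the values were examined. It measured 6.59, 6.84 and 4.63 in WT and 6.51, 6.68 and 4.65 in OC1-KO, so both embryos numbered 3 lay under the other 4.

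Of the 3 channel genes with a probe set, Cngb3, the beta subunit of the cone channel, passed. It measured 7.99, 7.95 and 7.35 in WT and 8.05, 8.14 and 6.32 in OC1-KO. Both embryos numbered 3 lay under the other 4, and OC1-KO 3 lay under the threshold. The rod subunits Cnga1 and Cngb1 ranged from 0.90 to 2.48 and from 5.01 to 6.17.

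None of the 6 genes of shut-off and calcium feedback passed. Arr3, the cone arrestin, ranged from 5.21 to 6.70, and Sag, the rod arrestin, from 4.48 to 5.80. The kinase Grk1 ranged from 1.85 to 2.65 and recoverin, Rcvrn, from -0.24 to 3.09. The guanylate cyclase activators Guca1a and Guca1b spread over 1.82 to 5.74 and 3.98 to 6.64.

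Crb1, an apical polarity protein at the contacts between photoreceptors and glia, was the 1 gene of the last group of 5 to pass, and it was the closest to the filter from above. It measured 7.04, 6.98 and 7.18 in WT and 7.06, 7.49 and 7.15 in OC1-KO, and its other probe set 6.79, 7.07 and 7.16 in WT and 6.31, 6.50 and 7.11 in OC1-KO. Just below the filter were the cone arrestin Arr3, with a mean of 6.45 in OC1-KO, and Rom1, an outer segment membrane protein, which ranged from 5.96 to 6.78 with a mean of 6.43 in OC1-KO. Prph2, the partner of Rom1 in the outer segment rim, ranged from 1.13 to 2.94, Aipl1, a chaperone of the phosphodiesterase, from 3.02 to 5.64, and Rp1, a protein of the outer segment axoneme, from 1.91 to 5.36.

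The letters TAATCC, the core that the homeodomains of Otx2 and Crx recognise, were searched on both strands in RefSeq promoters (mouse assembly GRCm38.p6) of 300 bases, 250 before and 50 from the annotated start on, and 24 of the 34 genes had such a promoter. They were present for 9 of the 24 (37.5%), against 8.14% of all 27025 genes and 7.06% of all 32851 promoters. The 9 were Crx, Otx2 and Gnat2, all above the filter, and Aipl1, Cnga1, Cngb1, Gngt1, Guca1a and Sag, all below it. The match was therefore present on both sides of the filter, in 3 of 8 genes above it that had a promoter. TGCTGA, part of the site of the Maf factors such as Nrl, was present for 6 of 24 genes (25.0%) and for 21.7% of all genes, and the Onecut core, ATCAAT, for 1 of 24 (4.17%, Opn1sw) and for 8.63% of all genes. The 3 sets of letters do not overlap one another, and a match describes letters and not a bound site. The 100 bases before the start are shown for 2 genes above the filter and 2 below it. They run 5′ to 3′ on the strand of the gene, with TAATCC or its reverse complement GGATTA in capitals. For Gnat2 and Sag the start used lies inside the annotated gene span, which begins at chr3:108086788 and chr1:87798143.
Crx (chr7:15879956-15880055, minus strand): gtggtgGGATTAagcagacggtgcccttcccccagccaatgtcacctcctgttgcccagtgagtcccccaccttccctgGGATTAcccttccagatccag
Gnat2 (chr3:108092966-108093065, plus strand): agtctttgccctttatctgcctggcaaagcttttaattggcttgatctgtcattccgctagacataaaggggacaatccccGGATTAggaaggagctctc
Sag (chr1:87803580-87803679, plus strand): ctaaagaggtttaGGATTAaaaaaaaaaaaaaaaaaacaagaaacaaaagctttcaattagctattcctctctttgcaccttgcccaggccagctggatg
Cngb1 (chr8:95306586-95306685, minus strand): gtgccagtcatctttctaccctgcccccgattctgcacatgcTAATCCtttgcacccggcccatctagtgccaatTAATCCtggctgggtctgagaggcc
Crx and Cngb1 each held 2 matches in this stretch, and those of Cngb1 were on the strand of the gene while those of the other 3 genes were on the opposite strand.

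The comparison of OC1-KO with WT asks whether the loss of OC1 changed these genes at this age, and none of the 10 passed the test. By limma, 0 of 10 had an unadjusted p under 0.05 (background 1.01% of the 20888 probe sets kept) and 0 an adjusted p under 0.05 (background 0.0%), with an adjusted p of 1.00 for each. The methods' t-test called 0 of 10 without adjustment (background 1.51%), and limma with the embryo number as a block also 0 of 10 (background 4.37%). By the brightest probe set, the 2 genotypes were without overlap in 0 of 10 genes (background 3.56%). The mean was higher in OC1-KO for 5 genes and lower for 5, and the median log2 difference was 0.012, beside -0.007 over all probe sets kept.

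The sizes were small against the spread between embryos. Otx2 differed by 0.04 (WT 12.40 ± 0.01 and OC1-KO 12.43 ± 0.29, SD, n = 3 per genotype; SE 0.18; limma unadjusted p = 0.851). For Prdm1 the difference was -0.03 (11.42 ± 0.13 against 11.39 ± 0.38; SE 0.22; limma unadjusted p = 0.888). Neither fate factor differed beyond the spread between embryos. Gnat2 differed by 0.10 (8.80 ± 0.18 against 8.90 ± 1.09; SE 0.50; limma unadjusted p = 0.854), and Gnb3 by 0.11 (8.38 ± 0.22 against 8.48 ± 0.42; SE 0.25; limma unadjusted p = 0.675). With an SE of 0.50, a difference of the size seen between the embryos of 1 genotype could not be told from none for Gnat2. The exact two-sided permutation test gave p = 1.0 for Otx2 and Gnat2 and p = 0.9 for Prdm1 and Gnb3, and 3 against 3 embryos cannot go below 0.1. Over the 10 genes the differences ran from -0.26 (Cngb3) to 0.52 (Nrl). The sign changed when 1 array was left out in 8 of the 10, all but Nrl and Crb1. Without OC1-KO 3 the difference turned positive for Crx (0.22), Prdm1 (0.19) and Cngb3 (0.33) and grew to 0.72 for Gnat2 and 1.04 for Nrl. Without OC1-KO 1 it turned negative for Gnat2 (-0.23), and without OC1-KO 2 for Gnat2 (-0.21), Otx2 (-0.07) and Gnb3 (-0.10). Values of the other sign but within 0.1 of 0 were also seen for Otx2 without OC1-KO 1 (-0.025), Gnb3 without WT 1 (-0.018), Prdm1 without WT 2 (0.039) and Crx without WT 3 (0.095), and those of Gnb1 and Pde6d stayed between -0.094 and 0.087 whichever array was left out.

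These near-zero means held opposite differences between embryos. Within the same number, OC1-KO minus WT had a median over the 10 genes of 0.22 for embryos 1, 0.31 for embryos 2 and -0.42 for embryos 3, and 8, 9 and 2 of the 10 were higher in OC1-KO. Over all genes above the filter the share higher in OC1-KO was 44.8%, 53.8% and 49.3%. The sequence of higher, higher and lower occurred in 7 of the 10 (Otx2, Crx, Nrl, Gnat2, Gnb3, Cngb3 and Crb1), and in 1341 of 10526 genes (background 12.7%). Crb1 was near 0 for embryos 1 (0.017) and 3 (-0.036), and its other probe set was lower in all 3 pairs (-0.48, -0.56 and -0.05). The sequence was noticed after the values were seen, each pair is 1 array against 1 array, and the 7 genes share those arrays. Quantile normalization, added for the lower median signal of OC1-KO 3, gave medians of 0.26, 0.31 and -0.37.

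**Figure D2:**
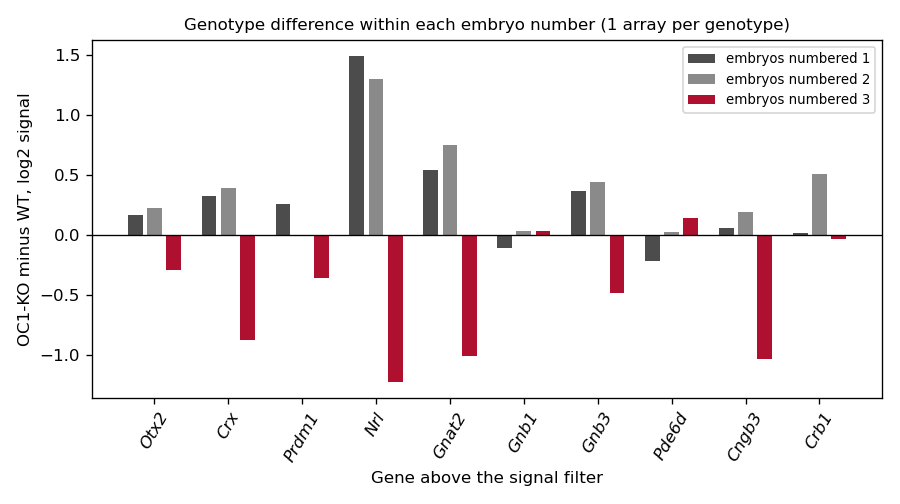
OC1-KO minus WT log2 signal (vertical axis) for the 10 genes above the filter (horizontal axis), with 1 bar for each embryo number, so that each bar is 1 array less 1 array and has no error. For Nrl, Crx, Gnat2, Gnb3 and Cngb3 the bars of embryos 1 and 2 are above 0 and that of embryos 3 is below it, and the bars of Gnb1 and Pde6d stay close to 0.

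Nrl had the largest pair differences, and its levels above show the 3 embryos of OC1-KO at 8.37, 8.04 and 6.65. With embryos 1 and 2 alone, 2 against 2, Gnat2 of the 10 genes had an unadjusted limma p under 0.05 and a higher mean in OC1-KO (background 1.21%). Its adjusted p was 1.00. The log2 difference was 0.65 for Gnat2 (SE 0.18, limma unadjusted p = 0.0147). For Nrl it was 1.40, with both WT values under 7, so that Nrl was over the threshold in OC1-KO alone here. Its value is a description, and its unadjusted limma p under 0.05 is not counted as a call. Gnat2 and Nrl were both under 0.05 without adjustment when OC1-KO 3 alone was left out, where the WT mean of Nrl was 7.165. Without the embryos numbered 3, 8 of 10 genes were higher in OC1-KO, with a median difference of 0.23, beside 0.002 over all probe sets kept.

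The difference between these pairs was put to a test that was added after the values were seen, the interaction of genotype with embryo 3, which leaves 1 residual degree of freedom before moderation and rests on OC1-KO 3 as a single array. Gnat2, over 7 on every array, had an interaction of -1.66 (SE 0.27, limma unadjusted p = 0.00224, adjusted p = 0.764). That of Crx was -1.24 and that of Gnb3 -0.89, also with every array over 7. For Nrl it was -2.62 and for Cngb3 -1.16, but 3 values of Nrl and that of Cngb3 in OC1-KO 3 were under 7, and these sizes are loosely set. These 5 of 10 were lower at an unadjusted p under 0.05 (background 4.26%), and 0 of 10 passed after adjustment (background 0.00479%). The median over the 10 genes was -0.69 and that over all probe sets kept -0.03. No interaction can therefore be called for any of these genes.

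Embryos 3 were also set against embryos 1 and 2 over both genotypes, and no gene above the filter passed the adjusted test. With genotype in the model, the embryo number reached an adjusted p under 0.05 in 0 of 10 genes by the F test (background 5.32%) and an unadjusted p under 0.05 in 1 (background 31.9%). That gene was Cngb3 (limma unadjusted p = 0.0186 and limma adjusted p = 0.101). Embryos 3 were lower than the mean of embryos 1 and 2 in 8 of 10 genes, with a median of -0.22, beside -0.04 over all probe sets kept. In 3 genes the unadjusted limma p was under 0.05 (background 18.5%), namely Cngb3 at -1.20 (SE 0.28, adjusted p = 0.0589), Gnat2 at -1.06 (SE 0.38, adjusted p = 0.137) and Prdm1 at -0.41 (SE 0.16, adjusted p = 0.159). None of the 10 was under 0.05 after adjustment (background 6.61%). Cngb3 passed under some alternatives (log2 of the signal plus 32, an intensity trend, and no genotype term) and did not pass under the others. Of the 22 genes below the filter, fitted with all probe sets, 3 had an unadjusted limma p under 0.05 (background 14.9%) and 0 an adjusted one (background 0.0%). Pde6c was at -2.01 (SE 0.16, limma adjusted p = 0.24), while Opn1mw was at 1.18 (SE 0.18, limma adjusted p = 0.24) and Gngt1 at 2.40 (SE 0.52, limma adjusted p = 0.261). Opn1mw (2.30 to 4.11) and the rod gene Gngt1 (1.57 to 5.25) were dim, so their direction is loosely set. The 3 cone genes above the filter were all lower in embryos 3, with Gnb3 at -0.19. Of the other cone genes below it, Opn1sw (-1.585) and Gngt2 (-0.58) were lower, Pde6h (0.09) was higher and Arr3 (-0.007) was near 0. The Opn1sw value rests on OC1-KO 3 (2.08), since WT 3 (4.88) lay between WT 2 (4.75) and WT 1 (5.18). Its other probe set did not repeat it, with 3.5, 3.5 and 5.4 in WT and 4.6, 4.5 and 4.3 in OC1-KO. Opn1sw was dim as well, and its direction is loosely set. The summed signal of the 9 cone genes was 1355, 1357 and 1190 in the WT retinas and 1719, 1868 and 737 in the OC1-KO retinas, while that of the 10 rod genes, mostly Gnb1, was 7873 to 9963 over the 6 arrays.

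**Figure D3:**
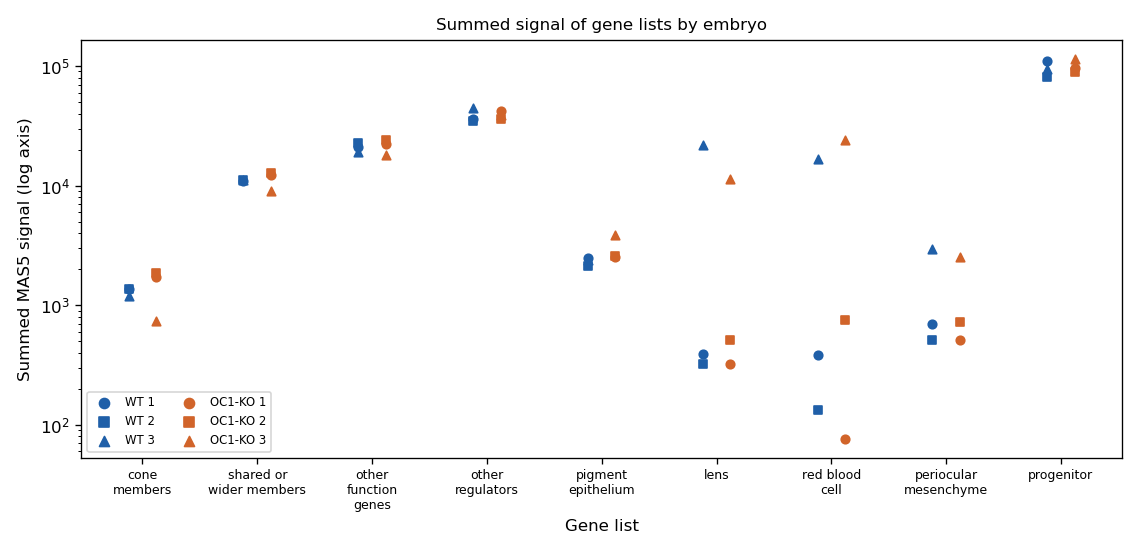
Summed MAS5 signal (vertical axis, log scale) of gene lists (horizontal axis) in each embryo, with WT in blue, OC1-KO in orange and the embryo number given by the marker shape. The embryos numbered 3 stand out by lens, red blood cell and periocular mesenchyme markers, and OC1-KO 3 is the lowest for the cone genes, at 737, and the highest for the pigment epithelium markers, at 3825.

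The pigment epithelium, which expresses Otx2 as well, was also uneven between the arrays. Its 15 markers summed to 2134 to 2487 in WT and to 2547 to 3825 in OC1-KO, with the highest sum in OC1-KO 3, and 5 of 15 were above the filter. Pmel, a melanosome protein, measured 6.98, 5.90 and 8.03 in WT and 7.61, 7.80 and 9.68 in OC1-KO. Mitf, the transcription factor of pigment cells, measured 6.36, 6.72 and 7.55 in WT and 7.44, 6.99 and 8.35 in OC1-KO. Both passed the filter through the OC1-KO mean alone, so no test of the genotype is given for them, and both had their highest value in OC1-KO 3. Dct was also highest there, at 9.18. Rrh, the brightest of the 5 above the filter, was not, with 10.75, 10.50 and 10.03 in WT and 10.58, 10.44 and 10.16 in OC1-KO. Nor was Ttr, at 6.77 in OC1-KO 3 against 7.46 and 7.63 in OC1-KO 1 and 2. Otx2, in contrast to Pmel and Mitf, was lowest in OC1-KO 3. The endothelial markers summed to 1530 and 1596 in the embryos numbered 3 and to 1636 to 2468 in the others. Progenitor markers summed to 81490 to 114500 and ganglion cell markers to 58630 to 82370. For the ganglion cell markers both embryos numbered 3 were above the other 4, but narrowly, at 75740 in WT 3 against 75480 in WT 1. The part of these lists in the values of the photoreceptor genes was not tested.

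Other regulators of photoreceptor development were broadly above the filter, and those above it did not pass the test. Of 25 listed, 24 had a probe set and 17 were above the filter. Of these, 9 had a higher and 8 a lower mean in OC1-KO, with a median of 0.0 and 0 with an unadjusted limma p under 0.05. Thrb, which the article reports as lower in OC1-KO mice in earlier work, was listed but was not among the 17. It was therefore not put to this test. Neurod1, a bHLH factor of photoreceptor precursors, measured 13.06, 12.93 and 13.28 in WT and 13.46, 13.35 and 12.79 in OC1-KO. Rorb, a nuclear receptor needed for rods, measured 12.61, 12.59 and 13.39 in WT and 12.92, 12.14 and 13.06 in OC1-KO. Neurod1 again had OC1-KO 3 lowest and the other OC1-KO embryos highest, and Rorb did not. Of the 17, 5 had higher, higher and lower differences over embryos 1 to 3, which were Neurod1, Neurod4, Mef2d, Lhx4 and Isl2, beside 12.7% of all genes above the filter. Embryos 3 were lower by the adjusted test in 1 of 17, the nuclear receptor Rora (-0.84, limma adjusted p = 0.0243), a share near the 6.61% of all probe sets kept.

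Other genes of photoreceptor function were divided. Of 47 listed, 37 had a probe set and 18 passed the filter, 11 with a higher and 7 with a lower mean in OC1-KO, a median of 0.03 and 0 with an unadjusted limma p under 0.05. Limma with the block called 1 of the 18 without adjustment (background 4.37%). That gene, Cacna1f, passed the filter through the WT mean alone (7.031 against 6.565 in OC1-KO), so its call is not read as a result. The methods' t-test called 1 other gene (background 1.51%). Arl3, a small GTPase that releases cargo from carriers such as Pde6d, measured 12.36, 12.31 and 12.65 in WT and 12.43, 12.54 and 12.65 in OC1-KO. Prom1, a membrane protein of the outer segment discs that progenitors also express, measured 12.15, 11.80 and 11.40 in WT and 12.02, 11.98 and 11.58 in OC1-KO. The genotypes overlapped for both. Embryos 3 were lower by the adjusted test in 5 of the 18, Rpgrip1 (-2.88), Rgs9 (-1.04), Cep290 (-0.90), Pdc (-0.88) and Wdr17 (-0.61), beside 6.61% of all probe sets kept, and higher in 0. Rpgrip1 and Cep290 are proteins of the connecting cilium, Rgs9 speeds the shut-off of transducin, and Pdc encodes phosducin, which binds transducin beta and gamma subunits.

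Bipolar cells arise from Otx2-expressing cells too, and their factors were compared for that reason. Of 10 listed, 7 had a probe set and 3 were above the filter, all with a lower mean in OC1-KO. Prdm8, a zinc finger factor of rod bipolar cells that amacrine cells also express, measured 7.67, 7.98 and 7.82 in WT and 6.86, 7.22 and 7.60 in OC1-KO. The groups did not overlap (background 3.56% of the probe sets kept). The difference was -0.60 (SE 0.22, limma unadjusted p = 0.0291, background 1.01% under 0.05, adjusted p = 1.00). With the block the limma unadjusted p was 0.0114 (background 4.37% under 0.05). The methods' t-test did not call Prdm8. Irx5 and Irx6, homeodomain factors of bipolar cells, differed by -0.19 and -0.38 and did not pass. Irx6 was not lower in every pair, with differences of -0.125, 0.40 and -1.41 for embryos 1 to 3. The article counts bipolar cells among the later-born cells, and which cells gave these signals was not tested.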

How the data were processed

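Total RNA from the retinas of 3 WT and 3 OC1-KO embryos was amplified, labelled with biotin and hybridised to the Affymetrix Mouse Genome 430 2.0 array. The authors ran MAS5 (version not given in the sources used here) and deposited a linear intensity for each probe set, and on every array the 2% trimmed mean is 500. MAS5 subtracts mismatch signal, which makes dim values noisy on the log2 scale. Log2 was taken here without further scaling.

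Without the 64 controls among the 45101 probe sets, the methods' filter (a group mean above 7 on the log2 scale in at least 1 genotype) kept 20888. A gene is the brightest probe set that maps to it alone. The 34 genes and all lists were chosen with earlier results of these data known. All 10 genes above the filter are named with values in every embryo. From the other photoreceptor and bipolar lists the text names genes with an unadjusted limma p under 0.05, up to 4, or otherwise the 2 brightest. Genes that make up most counts of 5 or fewer are also named. These genes and the pairs of embryos were singled out after their values were seen. The pigment epithelium markers fell outside this rule, and all 5 above the filter are named. Markers of the remaining cell types are given as counts or sums.

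Genotypes were compared by limma 3.58.1 (lmFit, eBayes) in R 4.3.3, and p-values were adjusted by Benjamini-Hochberg over these 20888. The embryo number was tested with genotype in the model. The fits were also run on simulated data in which the noise of each array was independent. That setting leaves out what arrays of the same number share, so it does not test the fits for it. Python 3.11.15, pandas 2.3.3, scipy 1.17.1 and matplotlib 3.10.9 were also used. The labels do not say what a number shares, but arrays of the same number deviated together (correlations of deviations from the group means of 0.509, 0.575 and 0.671, against -0.438 to -0.037 for different numbers), so that the numbers pair the arrays on the values alone. No array was a duplicate of another. P-values of the main test measure the spread between single embryos, which includes what embryos of the same number share. Where the embryo number was in the model, they measure the spread left after it. The 6 arrays limit the precision.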

Additional observations from a re-analysis of the deposited data

How the results depend on the processing

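The number of genes above the signal filter was 10 with quantile normalization and with the mean over probe sets, 14 at a threshold of 6 and 7 at a threshold of 8. The count with an unadjusted p under 0.05 for OC1-KO against WT was 0 with the replicate block, which uses the pairing of the arrays. It was 0 under each other alternative except embryos 1 and 2 alone, with 2 (Nrl and Gnat2). When 1 array was left out it ranged from 0 to 2. With embryos 1 and 2 alone both WT values of Nrl were under 7, so its call there is a description. No adjusted p was under 0.05 under any alternative, the lowest being 0.999. The F test of embryo number called 1 gene, Cngb3, with an intensity trend, and the contrast of embryo 3 called 1, Cngb3, with no genotype term, with log2 of the signal plus 32 and with an intensity trend. The difference changed sign with the mean over probe sets for Crx (0.029) and Crb1 (-0.10), and with embryos 1 and 2 alone for Crx (0.36), Prdm1 (0.13) and Cngb3 (0.13). With 1 array left out the differences ran from -0.068 to 0.199 for Otx2, -0.23 to 0.22 for Crx, -0.17 to 0.19 for Prdm1, 0.18 to 1.04 for Nrl, -0.23 to 0.72 for Gnat2, -0.090 to 0.087 for Gnb1, -0.10 to 0.32 for Gnb3, -0.094 to 0.060 for Pde6d, -0.58 to 0.33 for Cngb3 and 0.03 to 0.25 for Crb1. The cause was not tested. A comparison of the proteins of rod and cone paralogs was not run. The 22 genes below the filter were outside the genotype test except in the fit without a filter, and dim MAS5 signals vary widely on the log2 scale, so their values are a description.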
